A study of Mus musculus with 43 samples.

Results

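Fibroblast growth factor 4 (FGF4) signalling through ERK was described here in mouse embryonic stem cells that lack MTF2, by the levels of 10 genes. They were taken by symbol as the ligand Fgf4, the receptors Fgfr1 and Fgfr2, the transcription factors Etv1, Etv4 and Etv5, and the feedback inhibitors Spry2, Spry4, Spred1 and Dusp6. All 10 were found among 22462 genes of the authors' deposited table, and all 10 were among the 11362 genes the authors tested. MTF2 is a Polycomb-like subunit of Polycomb repressive complex 2 (PRC2), which methylates lysine 27 of histone H3. The control group was E14 cells (ES-E14TG2a, a mouse embryonic stem cell line), grown with LIF and serum on gelatin, and the other group was E14 cells labelled MTF2 KO, grown the same way with no other allele or agent named. Each group had 3 polyadenylated RNA libraries, called biological replicates by the series. The labels give neither the way the knockout was made nor the number of clones. The ChIP-seq samples of the series, with rescue lines, were not analysed here.

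FGF4 is secreted by the embryonic stem cells themselves. It binds FGF receptors, tyrosine kinases that switch on RAS, RAF, MEK and ERK in turn. ERK activity lets embryonic stem cells leave naive pluripotency, and in the early embryo it directs inner cell mass cells towards primitive endoderm. ERK also raises transcription of its own brakes, the Sprouty, Spred and dual-specificity phosphatase genes, and of the ETV genes, whose mRNA is therefore often read as a record of pathway output.

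Each group is represented by 1 pooled FPKM per gene (fragments scaled to transcript length and library size), so levels can be set side by side between genes, but no SD or value per library can be given. Ratios are log2((knockout FPKM + 0.5)/(control FPKM + 0.5)). Calls and q values (p adjusted over all tested genes) are those of Cuffdiff in the authors' deposited table, with a gene called at a q of 0.05 or less. The lowest q, 0.0012, was shared by 472 tested genes, so genes with that value cannot be ranked by it. The targeted gene, Mtf2, was at 74.3 FPKM in control cells against 44.7 FPKM in the knockout (log2 ratio -0.73, q = 0.0496, authors' deposited table). Transcripts thus remained at 60.2% of control, so Mtf2 mRNA is a weak check of the labels. Over all tested genes, 6.90% were called higher and 6.03% lower. In the list of 16 pluripotency markers, 3 of 15 tested were called higher and 0 lower. At an unadjusted deposited p under 0.05, 3 were higher and 1 lower. The list summed to 5955 FPKM (control) and 6144 FPKM (knockout). By mean level, Dppa5a, Pou5f1, Esrrb and Zfp42 led it, and the genes called higher were Klf5, Tdgf1 and Tfcp2l1. Of 18 primitive endoderm markers 14 were called higher, among them the most abundant, Sparc, Lamc1, Col4a1 and Col4a2. Amn, Foxa2, Sox17 and Hnf4a were not called, and of these only Hnf4a was lower in the knockout (2.25 and 1.08 FPKM). The summed level of the 18 was 357 and 1807 FPKM, of which Sparc made up 180 and 788 FPKM. Of 8 fibroblast markers 3 were tested and 0 called (1 higher and 1 lower at an unadjusted deposited p under 0.05), with summed levels of 9.24 and 16.5 FPKM, and Col3a1 and Dcn were listed at 0 in both groups. Of 8 trophectoderm markers 5 were tested, with Krt8 and Krt18 called higher and Tfap2c (16.9 and 7.41 FPKM) called lower. Eomes (6.07 and 3.90 FPKM) and Hand1 (0.841 and 1.70 FPKM) were not called. Cdx2, Elf5 and Plac1 were under 1 FPKM in both groups and not tested. The summed level of the 8 was 40.7 and 184 FPKM, with Krt18 at 9.55 and 117 FPKM and Krt8 at 6.11 and 52.9 FPKM. The part of these marker differences in the values below was not tested, and in bulk RNA fewer cells of a type and less RNA per cell cannot be told apart.

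The ETV factors Etv4 and Etv5 fell in knockout cells, while no other gene of the 10 was called. In total 2 of 10 genes were called lower, where 6.03% of all tested genes were, and 0 of 10 higher, where 6.90% were; 12.9% of tested genes were called in either direction. At an unadjusted deposited p under 0.05, 1 gene, Fgfr1, was higher and 2 lower. Over all 11362 tested genes, 1445 were higher and 1477 lower at that threshold. The median log2 ratio of the 10 genes was 0.05, against -0.0035 over all tested genes, with 6 genes above 0 and 4 below. Summed by role, the ETV factors went from 293 to 169 FPKM (57.8% of control), the feedback inhibitors from 124 to 149.8 FPKM (121%) and the receptors from 15.9 to 23.9 FPKM (151%).

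**Figure D1:**
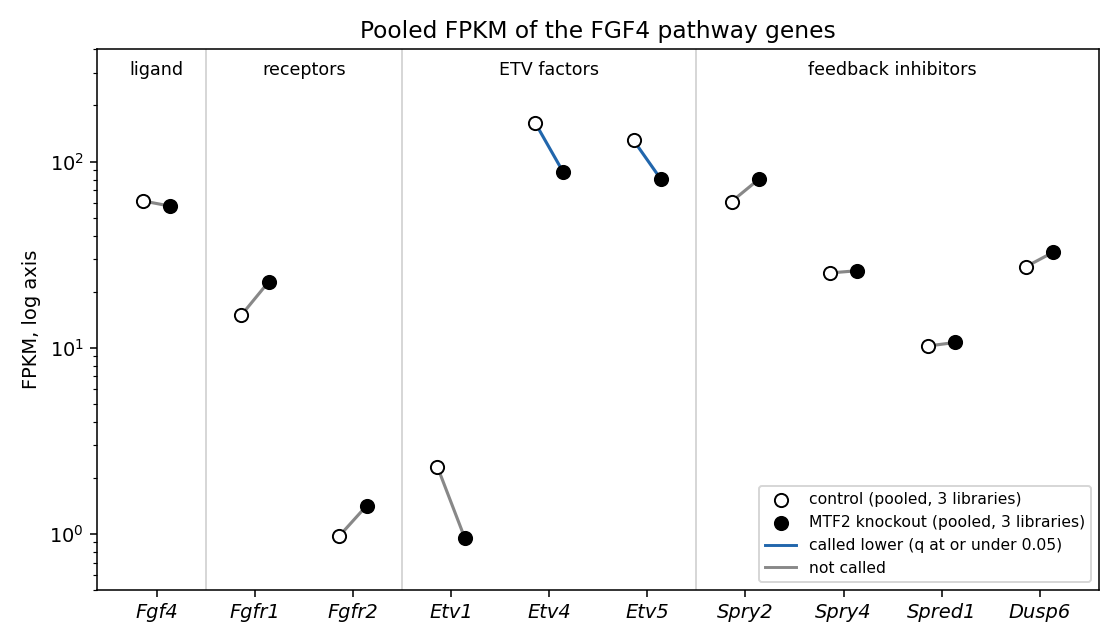
Pooled FPKM (log axis) of the 10 genes in control cells (open circles) and MTF2 knockout cells (filled circles), ordered by role. Lines join the pooled values of a gene and are blue where the gene was called lower. Etv4 and Etv5 start as the highest genes, at 161 and 130.0 FPKM, and drop to 88.3 and 80.1 FPKM, beside 80.6 FPKM for Spry2.

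In control cells the order of levels was Etv4, Etv5, Fgf4, Spry2, Dusp6, Spry4, Fgfr1, Spred1, Etv1 and Fgfr2. In knockout cells Spry2 ranked 2 and Etv5 ranked 3, Fgf4 came next, and Etv1 was lowest. The ratio of Etv4 to Spry2 levels was 2.63 in control and 1.10 in knockout cells, and that of Etv5 to Spry2 was 2.13 and 0.994. Without values per library, it could not be judged which neighbours in these orders differ beyond their spread.

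Fgf4, the ligand (chromosome 7, 144861386 to 144865243, mm10), measured 61.4 FPKM in control cells against 57.5 FPKM in the knockout. Knockout cells thus held 93.7% of the control level (log2 ratio -0.09, q = 0.832, authors' deposited table), and the ratio lay at percentile 43.6 of all tested genes. The level was near the top of the range in both groups, above 84.9% of tested genes in control and 85.1% in knockout cells.

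Fgfr1, the main FGF receptor of embryonic stem cells (chromosome 8, 25518759 to 25575718), measured 14.9 FPKM in control cells against 22.5 FPKM in the knockout. It had the largest ratio above 0 among the 10 genes, 0.58 on the log2 scale, but was not called (q = 0.1005, authors' deposited table). Fgfr2, the receptor that primitive endoderm of the embryo expresses, was close to the lower limit of the tested genes, at 0.971 FPKM in control cells against 1.42 FPKM in the knockout (q = 0.852, authors' deposited table). Its locus entry (chromosome 7, 130162451 to 133123367) is a merged span of 2961 kb that 30 other genes share, so reads of Fgfr2 may not be cleanly separated there. The level of Fgfr1 was 15.3 times that of Fgfr2 in control and 15.9 times in knockout cells. The error of this ratio within a group is unknown, as only pooled values were given. The knockout-over-control fold change of Fgfr2 had an error of 6.57 log2 units, taken as the deposited log2 fold change over the deposited statistic. The change from 15.3 to 15.9 times is therefore barely resolved.

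Etv4, Etv5 and Etv1 form the PEA3 family of ETS activators. Etv4 (chromosome 11, 101769742 to 101785371) fell from 161 FPKM in control to 88.3 FPKM in knockout cells, 55.0% of control, with a log2 ratio of -0.86 (q = 0.0022, authors' deposited table). Etv5 (chromosome 16, 22381309 to 22439719) fell from 130.0 to 80.1 FPKM, 61.6% of control, with a log2 ratio of -0.70 (q = 0.0116, authors' deposited table). Both genes moved by similar amounts and kept nearly the same order, with an Etv4 to Etv5 ratio of 1.23 in control and 1.10 in knockout cells. Their levels remained high among tested genes, at percentiles 94.6 and 93.1 in control and 90.3 and 89.4 in knockout cells. Their ratios, in contrast, lay at percentiles 8.65 and 12.6 of all tested genes. Etv1 (chromosome 12, 38779380 to 38868215) was scarce, at 2.30 FPKM in control cells against 0.949 FPKM in the knockout. Its log2 ratio of -0.95 was the lowest of the 10, but it was not called (q = 0.558, authors' deposited table).

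Among the feedback inhibitors, none of the 4 was called. Spry2, a Sprouty protein that blocks signalling between receptor and RAF (chromosome 14, 105891949 to 105896819), measured 61.0 FPKM in control cells against 80.6 FPKM in the knockout (log2 ratio 0.40, q = 0.242, authors' deposited table). Spry4, its relative (chromosome 18, 38586268 to 38601268), stood at 25.2 and 25.9 FPKM (log2 ratio 0.04, q = 0.933, authors' deposited table). Spred1, which brings the RAS inactivator neurofibromin to the membrane (chromosome 2, 117121374 to 117182279), stood at 10.2 and 10.7 FPKM (log2 ratio 0.06, q = 0.958, authors' deposited table). Dusp6, a phosphatase that removes phosphate from ERK in the cytoplasm (chromosome 10, 99263231 to 99267489), stood at 27.2 and 32.6 FPKM (log2 ratio 0.26, q = 0.535, authors' deposited table). All 4 ratios were above 0, where those of the ETV factors were below, but those of Spry4 and Spred1 were near 0. All were smaller in size than the ratio of Etv5. Relative to chromosomal neighbours, described below, the log2 ratios of Spry2 and Spry4 were -0.38 and -0.34, and those of Dusp6 and Spred1 were 0.17 and 0.04.

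The deposited statistic, a log ratio over its estimated error, gives an idea of how far each fold change was resolved. Dividing the deposited log2 fold change by it gave an implied error of 0.37 to 0.45 log2 units for 7 genes, all at 14.9 FPKM or more in control cells. It was 0.96 for Spred1, 1.55 for Etv1 and 6.57 for Fgfr2, the 3 lowest genes. A 95% interval from these errors ran from 0.329 to 0.919 of the control level for Etv4 and from 0.373 to 1.02 for Etv5. For Fgf4 it ran from 0.555 to 1.58, for Spry2 from 0.784 to 2.23, for Fgfr1 from 0.825 to 2.78, for Dusp6 from 0.670 to 2.14 and for Spry4 from 0.602 to 1.75. For Spred1 it ran from 0.284 to 3.84. The interval of Etv4 overlapped each of these, and no difference between genes was tested. The deposited p was smaller than a normal p from the statistic, 0.0001 against 0.0224 for Etv4 and 0.00085 against 0.0586 for Etv5. With such normal p adjusted over all genes with a statistic, neither was called; 0.258% of those genes were then called lower and 0.845% higher. Etv5 was also lost at a q of 0.01 (2.96% of tested genes lower and 3.86% higher), and both were lost with a 2-fold minimum (2.92% lower).

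**Figure D2:**
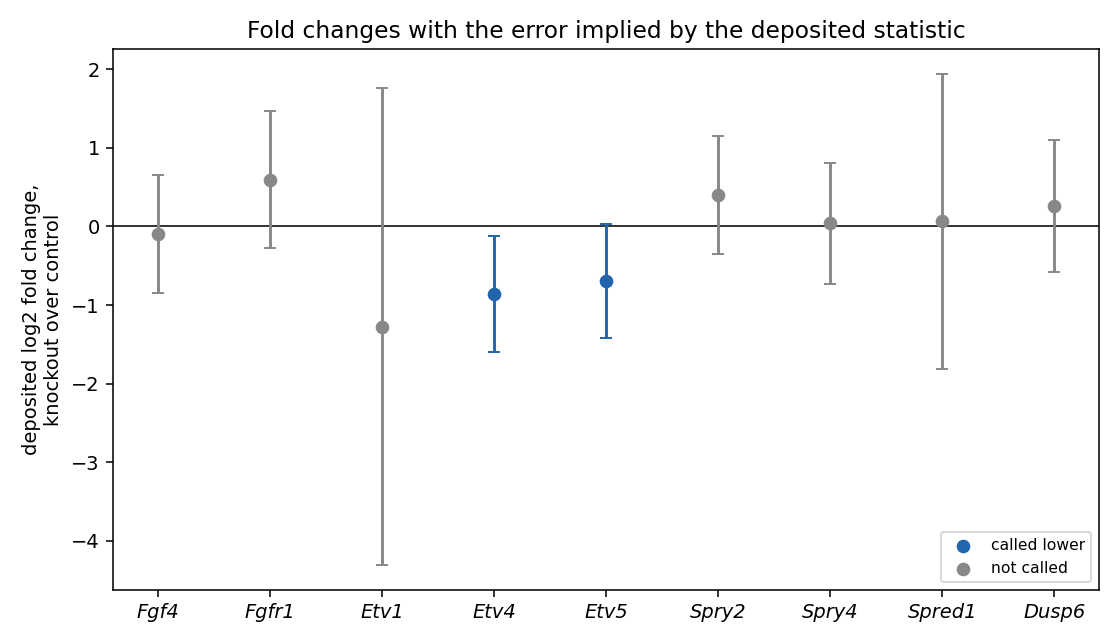
Deposited log2 fold change (knockout over control) of 9 genes, with bars of 1.96 times the error implied by the deposited statistic; Fgfr2, with an implied error of 6.57, is left out. Blue points were called lower. The bar of Etv4 stays below 0, that of Etv5 reaches 0.03, and the bars of all other genes cross 0.

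The promoters of these genes were examined because Capicua (CIC), a repressor that ERK signalling relieves in mammals, is known to bind ETV, Sprouty and Dusp promoters, and because PRC2 with Polycomb-like subunits is known for CpG-rich promoters. RefSeq promoter windows of GRCm38.p6, 250 bases before to 50 after an annotated start, matched 7 of the 10 genes with 9 windows. No window was available for Etv4, Fgfr1 and Spry4, so Etv4, which was called lower, is not covered here. Shown here are the 3 windows with Capicua-like letters. Capitals mark matches on either strand to TNAATGAA or to TNAATGG, with N for any base. TNAATGAA is a form of the Capicua octamer. TNAATGG, a related 7-letter form, was added after the windows were seen. These matches did not overlap each other, but 1 Etv5 match overlaps an ETS core, GGAA. Positions are counted from the annotated start as 1.
Etv5, the downstream start, GRCm38.p6 chr16:22438319-22438618, minus strand: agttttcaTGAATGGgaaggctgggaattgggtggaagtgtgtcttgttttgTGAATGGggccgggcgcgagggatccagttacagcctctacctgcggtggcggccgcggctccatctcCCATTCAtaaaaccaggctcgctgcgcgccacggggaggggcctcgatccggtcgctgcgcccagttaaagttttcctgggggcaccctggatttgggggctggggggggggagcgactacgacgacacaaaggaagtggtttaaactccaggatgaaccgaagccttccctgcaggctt
Spry2, GRCm38.p6 chr14:105896770-105897069, minus strand: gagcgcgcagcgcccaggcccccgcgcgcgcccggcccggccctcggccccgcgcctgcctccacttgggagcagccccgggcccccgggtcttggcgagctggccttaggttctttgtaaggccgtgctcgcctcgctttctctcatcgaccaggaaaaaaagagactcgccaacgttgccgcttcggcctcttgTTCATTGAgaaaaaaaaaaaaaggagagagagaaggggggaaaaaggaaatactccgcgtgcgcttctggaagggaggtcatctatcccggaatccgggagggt
Dusp6, GRCm38.p6 chr10:99262981-99263280, plus strand: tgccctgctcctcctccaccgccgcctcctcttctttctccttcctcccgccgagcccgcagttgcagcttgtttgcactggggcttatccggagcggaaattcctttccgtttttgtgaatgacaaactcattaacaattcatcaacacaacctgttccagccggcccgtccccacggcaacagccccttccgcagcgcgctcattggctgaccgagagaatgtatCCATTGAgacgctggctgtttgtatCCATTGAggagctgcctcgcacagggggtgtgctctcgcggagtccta

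Etv5 has annotated starts 1202 bases apart. The downstream window held TNAATGG 3 times, at -242 to -236, -198 to -192 and, on the opposite strand, -130 to -124. The upstream window held neither form. Dusp6 held TNAATGG at -23 to -17 and at 3 to 9, both on the opposite strand. Of all 32851 windows, 10.4% held TNAATGG and 0.737% held it more than once. As TNAATGG was added after the windows were seen, these shares cannot show whether its matches here are unusual. Spry2 held TNAATGAA once, at -54 to -47 on the opposite strand, as did 4.24% of all windows. The windows of Fgf4, Fgfr2, Etv1 and Spred1 held neither. Thus Etv5, which fell, and Spry2 and Dusp6, which were not called, all carried such letters. The 4-letter ETS core GGAA was in 7 of the 9 windows and in 96.0% of all windows, so its presence says little; the window of Fgf4 and the upstream window of Etv5 lacked it, as 4.02% of all windows did. CpG pairs numbered 40 in the window of Spred1, 37 and 19 in the upstream and downstream windows of Etv5, 28 in those of Fgf4 and Spry2 and 19 in that of Dusp6, against a median of 7 over all windows (quartiles 3 and 20). Etv1 had 12 and 3, and Fgfr2 had 4.

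**Figure D3:**
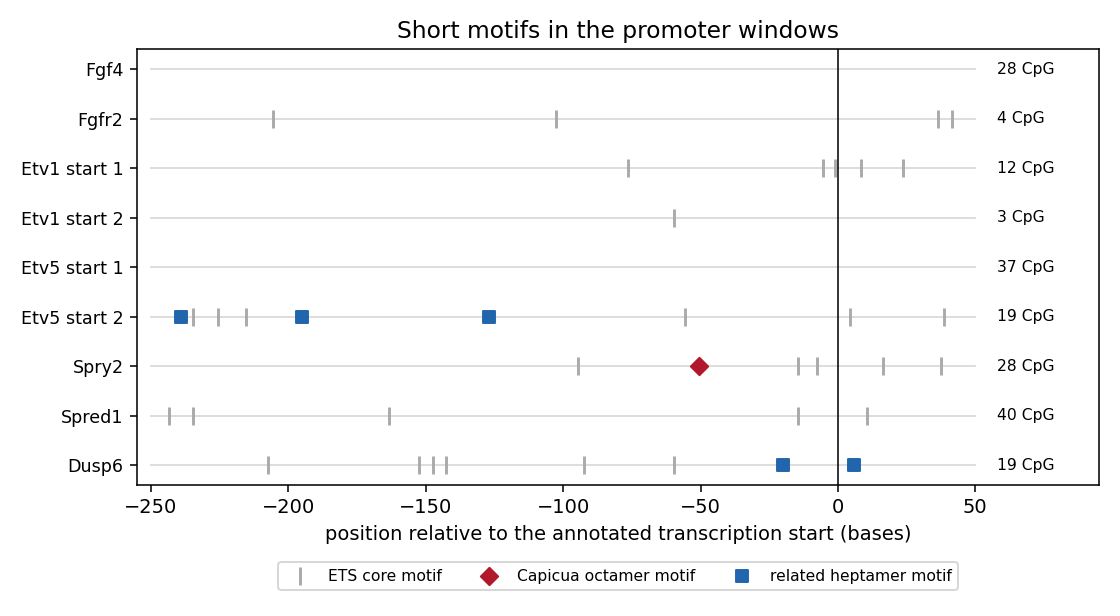
Motif matches by position relative to the annotated transcription start (bases) in the 9 promoter windows, either strand, with the number of CpG pairs at the right. Grey ticks are the ETS core, the red diamond is the Capicua octamer form TNAATGAA and blue squares are the related heptamer TNAATGG. Blue squares appear in the downstream Etv5 window (3) and in Dusp6 (2), and the diamond in Spry2.

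Fgfr1 and Spry2 lie among genes that were mostly higher in the knockout. For each gene, the 25 nearest genes on each side with an FPKM of 1 or more in either group were taken as neighbours. Around Fgfr1, 48 of 50 neighbours had a ratio above 0, 21 were called higher, and their median log2 ratio was 1.00. The ratio of Fgfr1 itself, 0.58, was below that of 39 of them, and the median over all 682 expressed genes of chromosome 8 was 0.0075. Around Spry2, 42 of 49 neighbours were above 0, 18 were called higher and 1 lower, and the median was 0.78, against 0.40 for Spry2; over all 405 expressed genes of chromosome 14 the median was 0.71. These neighbours reach as far as 26.4 Mb from Spry2. Spry4 had a neighbour median of 0.37, with 37 of 50 above 0. Taken relative to their neighbours, the log2 ratios of Fgfr1, Spry2 and Spry4 turned to -0.42, -0.38 and -0.34. With 10 genes on each side the neighbour medians of Fgfr1, Spry2 and Spry4 were 1.06, 0.80 and 0.20. Within 1 Mb they were 0.89, 0.51 (over 3 genes) and 0.23. The part of the neighbourhood in the levels of these genes was not tested.

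Etv4 and Etv5 fell among neighbours of which most had higher ratios than theirs. The 50 neighbours of Etv4, all within 1.03 Mb, had a median log2 ratio of -0.07 (quartiles -0.42 to 0.46), with 2 called higher and 4 lower, and 44 of them had a higher ratio than Etv4. The neighbours of Etv5 had a median of 0.04, with 3 called higher and 3 lower, and 47 of 50 had a higher ratio than Etv5. Etv1 also lay below its neighbours, with 48 of 50 higher. Relative to neighbours, the log2 ratios were -0.79 for Etv4, -0.73 for Etv5 and -1.08 for Etv1. Fgf4, near the end of chromosome 7, had 28 neighbours with a median of 0.28, and 21 of them had a higher ratio than Fgf4. Relative to these neighbours the log2 ratio of Fgf4 was -0.38. The neighbour medians were 0.09 for Dusp6, 0.02 for Spred1 and -0.13 for Fgfr2. Narrower windows moved some of these medians, to 0.38 for Etv5 with 10 genes on each side and, within 1 Mb, to 0.0028 for Fgf4 and 0.44 for Dusp6.

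**Figure D4:**
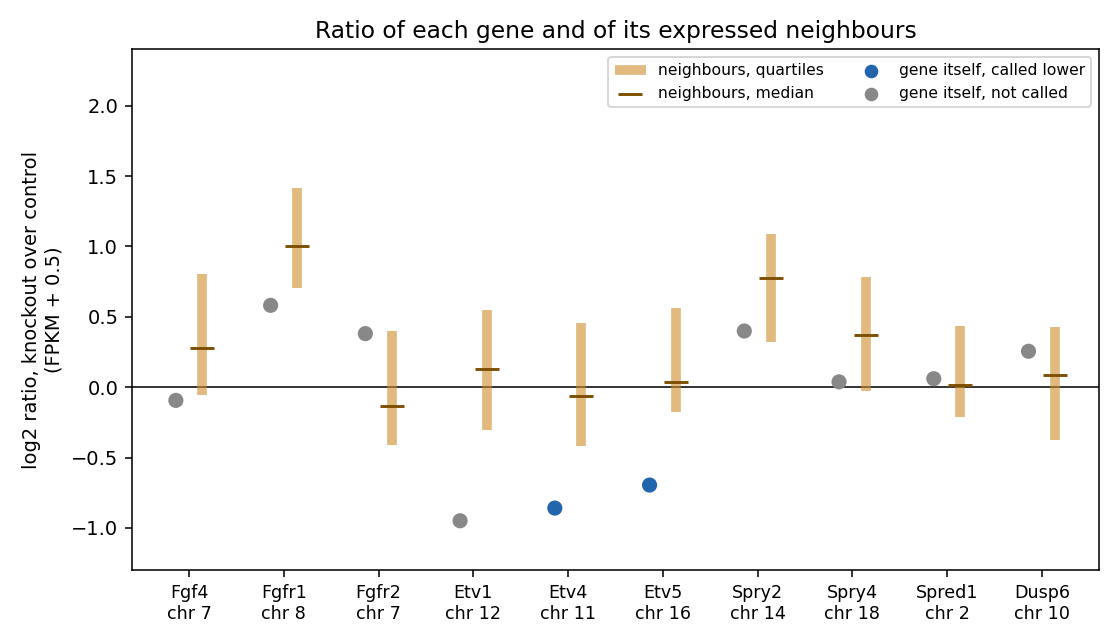
Log2 ratio of knockout over control (FPKM + 0.5) of each gene (points, blue where called lower) beside the median (dash) and quartiles (bars) of its expressed neighbours. The neighbours of Fgfr1 and Spry2 sit well above 0, at medians of 1.00 and 0.78, while Etv1, Etv4 and Etv5 lie below the lower quartile of theirs.

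The rest of the pathway was read from 7 lists of 121 genes that hold none of the 10, of which 120 were found in the table (Spry3 was not matched). Of 95 tested genes, 7 were called higher (7.37%, background 6.90%), 6 lower (6.32%, background 6.03%) and 82 were not called. Their median log2 ratio was 0.02. As a whole, the wider pathway was therefore called at about the rate of all tested genes, in both directions.

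Erf, an ETS-domain repressor that ERK phosphorylation drives out of the nucleus, fell from 385 to 112 FPKM (log2 ratio -1.78, q = 0.0012, authors' deposited table). Cic, the gene of Capicua, fell from 38.1 to 20.1 FPKM (log2 ratio -0.91, q = 0.0012, authors' deposited table). Both genes lie 16.9 kb apart on chromosome 7, and the median log2 ratio around each was -0.24. Etv2, an ETS factor of blood and vessel precursors, was at 2.64 FPKM in control and listed at 0 in knockout cells. In the list of ETS factors and repressors, 3 of 13 tested genes were thus called lower (background 6.03%) and 0 higher (background 6.90%). At an unadjusted deposited p under 0.05, 3 were lower and 0 higher. Gabpa (37.1 and 34.4 FPKM) and the serum response factor gene Srf (28.5 and 27.8 FPKM) were its most abundant uncalled genes.

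Of 19 tested members of the RAS, RAF, MEK and ERK list, 2 were called lower (background 6.03%) and 0 higher (background 6.90%). Of the 19, 9 had a ratio above 0. At an unadjusted deposited p under 0.05, 3 were higher and 3 lower. Map2k2, which encodes the ERK kinase MEK2, fell from 139.5 to 82.3 FPKM (log2 ratio -0.76, q = 0.0095, authors' deposited table). Ksr1, a scaffold that holds RAF, MEK and ERK together, fell from 12.3 to 4.36 FPKM (log2 ratio -1.40, q = 0.0012, authors' deposited table). Mapk3, which encodes ERK1, stood at 163 and 135 FPKM and Hras at 158 and 135 FPKM, and neither was called. Of 12 tested adaptors and RAS exchange factors 0 were called, with 2 higher and 0 lower at an unadjusted deposited p under 0.05; Crk stood at 137 and 137 FPKM and Gab1 at 81.2 and 108 FPKM.

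Of 20 other tested feedback inhibitors and phosphatases, 2 were called higher (10%, background 6.90%) and 1 lower (5%, background 6.03%). The counts were the same, 2 higher and 1 lower, at an unadjusted deposited p under 0.05. Spry1, another Sprouty gene, rose from 6.30 to 12.7 FPKM (log2 ratio 0.96, q = 0.0352, authors' deposited table). Rasa3, which inactivates RAS, rose from 1.66 to 4.78 FPKM (log2 ratio 1.29, q = 0.0116, authors' deposited table), in a stretch of chromosome 8 whose neighbour median was 0.97. Spred2 fell from 62.2 to 38.6 FPKM (log2 ratio -0.68, q = 0.0258, authors' deposited table). The other 17 of 20 tested genes of this list were not called, among them the ERK phosphatase gene Dusp9 (101 and 90.8 FPKM) and Dusp1 (54.5 and 53.1 FPKM).

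Of the early response genes, which growth factors and stress induce within minutes, 4 of 18 tested were called higher and 0 lower. The background was 6.90% higher and 6.03% lower. At an unadjusted deposited p under 0.05, 6 of these 18 genes were higher and 1 lower. Atf3 rose from 1.98 to 48.4 FPKM, Jun from 1.86 to 13.5 FPKM, Egr1 from 20.9 to 45.4 FPKM and Klf10 from 32.4 to 51.7 FPKM, with q of 0.0012, 0.0012, 0.0012 and 0.0336 in the authors' deposited table. Ier2 (167 and 149 FPKM) and Mcl1 (327 and 199 FPKM, q = 0.0914, authors' deposited table) were not called.

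Other ligands were low or not tested. Of 23 ligand and ligand-binding genes 7 were tested and 0 were called, with 1 higher at an unadjusted deposited p under 0.05. Fgf17 stood at 14.9 and 14.7 FPKM and Fgf22 at 3.82 and 2.03 FPKM, so Fgf4 was by far the most abundant FGF ligand in both groups. The 16 ligand genes not tested reached at most 1.72 FPKM. Of 6 tested receptors and co-receptors, Klb, the co-receptor for endocrine FGFs, was called higher, from a listed 0 to 2.28 FPKM. Fgfr3 (0.366 and 4.34 FPKM) and Flrt3 (0.708 and 6.21 FPKM) were not called, with q of 0.257 and 0.220 in the authors' deposited table.

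**Figure D5:**
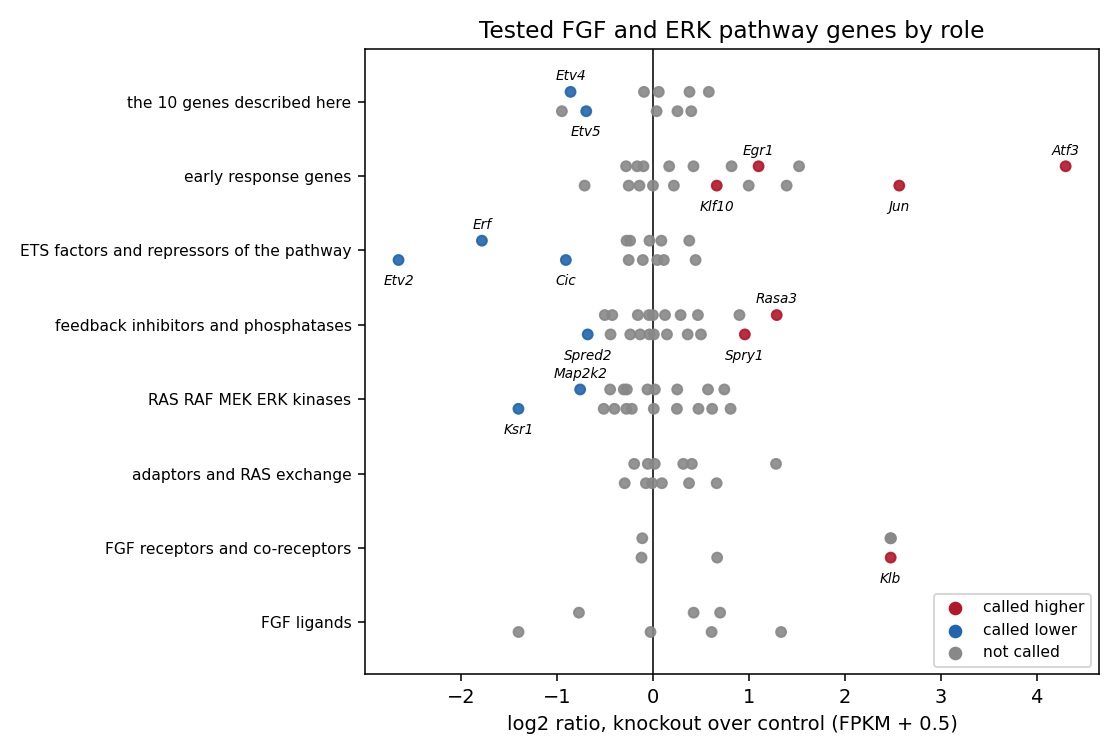
Log2 ratio of knockout over control (FPKM + 0.5) of each tested gene of the 7 wider lists and of the 10 genes described here, 1 row a list; points are offset vertically for legibility. Red genes were called higher and blue genes lower, 7 and 6 of 95 in the wider lists. Atf3 lies farthest to the right, at 4.30, and most points lie near 0.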

How the data were processed

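The gene table pools RNA-seq of 3 control and 3 MTF2 knockout libraries of E14 cells. Cuffdiff 2.2.1.3, TopHat2 2.1.0, Bowtie 1.0 and deepTools appear in the submitters' processing notes beside the builds mm10 and mm9, without roles. The FPKM values were made by the authors, pooled per group, per the file headers, and library depth is unknown. The deposited log2 fold change has no pseudocount. The deposited test statistic is a score, and the deposited p-value and q-value are those of Cuffdiff; the q equals a Benjamini-Hochberg adjustment over 11362 genes with status OK to within 5.2e-07. By symbol, 21090 genes could be matched to the RefSeq annotation of GRCm38.p6 (mm10), of which 99.99% lay on the same chromosome and 82.1% started within 2 kb, as did all 10 genes described. Starts were made 1-based.

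Ratios used a pseudocount of 0.5 FPKM. The genes, lists and neighbour rule (25 expressed genes on each side) were chosen with earlier results of these data known. Named were all 10 genes, Mtf2, every called gene of the 7 wider lists, up to 2 uncalled genes per list with the highest mean FPKM, and marker examples. Tdgf1, Tfcp2l1, Klf5, Tfap2c, Eomes, Hand1, Cdx2, Elf5, Plac1, Col3a1, Dcn, Amn, Foxa2, Sox17 and Hnf4a were named after their values were seen. Whether reads were counted by strand is not stated in the labels. Adjustments and neighbour medians were tested on simulated data. Alternatives were a q of 0.01, recomputed adjustment, a normal p from the statistic, a 2-fold minimum on the deposited fold change, an FPKM minimum of 5, pseudocounts of 0.1 and 1, centring, and other neighbour windows. Python 3.11.15, pandas 2.3.3 and scipy 1.17.1 were used.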

Additional observations from a re-analysis of the deposited data

How the results depend on the processing

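Of the 10 genes, 2 (Etv4 and Etv5) were called lower at the authors' q and with an FPKM minimum of 5. A recomputed adjustment gave q values within 5.2e-07 of the authors' q, so it could not change these calls. Leaving out Fgfr1 and Spry2, whose neighbours were shifted, was chosen after seeing the data. It could not change these calls either, because neither gene was called. At a q of 0.01 the count was 1 (Etv4), and with a 2-fold minimum or a normal p from the deposited statistic it was 0; with that normal p the adjusted values were 0.437 for Etv4 and 0.647 for Etv5. None of the 10 was called higher under any of these. In the wider lists, the 7 higher calls became 4 at a q of 0.01 and 2 with the normal p (Atf3 and Jun), and the 6 lower calls became 3 with the 2-fold minimum and 0 with the normal p, for which Klb and Etv2, listed at 0 in 1 group, have no statistic. Without genes listed at 0, chosen after seeing the data, 6 higher and 5 lower calls were left. Mtf2 (q = 0.0496) was no longer called under the stricter q or the 2-fold minimum, nor with the normal p (adjusted 0.755). Pseudocounts of 0.1 and 1 and centring on all tested genes changed no sign among the 10 genes; setting the neighbours' median to 0 turned Fgfr1, Spry2 and Spry4. The neighbour median of Spred1 was 1.28 over the 3 expressed genes within 1 Mb, and Etv1 had too few for a value; Etv5 moved from 0.04 to 0.38 with 10 genes on each side, and within 1 Mb Fgf4 moved from 0.28 to 0.0028 and Dusp6 from 0.09 to 0.44. No paired analysis was possible because the table holds 1 pooled value per group, and for the same reason no replicate could be left out. Precision is limited by the pooled values, most of all for Fgfr2, Etv1 and Spred1.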

Other observations

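Levels were also summed over some groups of paralogues, chosen after their values were seen and without a test. The Sprouty genes Spry1, Spry2 and Spry4 together went from 92.5 FPKM in control to 119 FPKM in knockout cells (129% of control), while the Spred genes Spred1, Spred2 and Spred3 went from 74.5 to 50.7 FPKM (68.1%), with Spred2 making up 83.5% and 76.2% of the sum. The MEK genes Map2k1 and Map2k2 went from 211 to 132 FPKM (62.6%), the RAS genes from 285 to 266 FPKM (93.5%) and the RAF genes from 83.2 to 89.4 FPKM (107%). The cytoplasmic ERK phosphatase genes Dusp6, Dusp7 and Dusp9 stood at 97.2% of their summed control level. The FGF receptors Fgfr1 to Fgfr4 summed to 17.5 and 30.6 FPKM, of which Fgfr1 held 85.1% in control and 73.6% in knockout cells. Of the genes in these sums, Spry1, Spred2 and Map2k2 were called and the others were not; the sums themselves have no error.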
